A study of Homo sapiens with 12 samples.

Results

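The regions described here are the histone-mark regions of HepG2 cells that lie within 30 kb of 6 genes encoding plasma carriers and regulators of iron: TTR, RBP4, TF and GC among the carriers, and HAMP and TFR2 on the iron side. Each gene was given as an interval on GRCh37 (hg19), and a region was a member where at least 1 bp of it fell inside a gene interval or the 30 kb to either side. This gave 135 regions of the 273551 on chromosomes 1 to 22 and X: 37 of 66513 for H3K27ac, 86 of 182592 for H3K4me1 and 12 of 24446 for H3K4me3. HepG2 is an established human liver cancer line of hepatocyte origin, and the labels give no treatment. ChIP-seq, which sequences the DNA pulled down with an antibody against a histone mark, was done with 3 libraries for each mark and 3 control libraries, titled as input but labelled with an anti-mouse IgG antibody, for which no list was analysed here. Each mark was represented by 1 peak list in which, going by its name, the replicates were pooled. There were therefore no replicate values, no difference was tested, and the depth of the libraries is unknown.

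Hepatocytes make most of the carrier proteins of blood plasma. Transthyretin (TTR) carries thyroid hormone and also binds the retinol carrier RBP4, transferrin (TF) carries iron, and GC, the vitamin D-binding protein, carries vitamin D metabolites and binds actin. HAMP encodes hepcidin, the hormone that removes the iron exporter ferroportin from cell surfaces, and TFR2 encodes transferrin receptor 2, a sensor of iron-loaded transferrin that acts upstream of hepcidin. Hepcidin transcription is known to respond to bone morphogenetic protein (BMP) signals through SMAD factors and to inflammation through STAT3. Active promoters commonly carry H3K4me3 and H3K27ac, and active enhancers carry H3K27ac with H3K4me1.

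Promoter sequence was available for 3 of the 6 genes, RBP4, TF and HAMP, from RefSeq on GRCh38.p14. It is shown because these promoters differ in base composition and because the HAMP promoter holds letters that match factors known to drive hepcidin. Each line gives the 250 bases before a listed start, 5′ to 3′ on the gene's strand, with matches to the searched motifs in capitals. The HAMP sequence is chr19:35282278-35282527 on the plus strand, the RBP4 sequence chr10:93601236-93601485 on the minus strand, and the TF sequence chr3:133746143-133746392 on the plus strand.
HAMP: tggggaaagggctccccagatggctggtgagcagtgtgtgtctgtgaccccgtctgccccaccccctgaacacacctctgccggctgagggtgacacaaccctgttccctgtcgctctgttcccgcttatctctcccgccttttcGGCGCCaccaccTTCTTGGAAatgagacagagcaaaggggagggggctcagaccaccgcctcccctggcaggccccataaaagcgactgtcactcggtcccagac
RBP4: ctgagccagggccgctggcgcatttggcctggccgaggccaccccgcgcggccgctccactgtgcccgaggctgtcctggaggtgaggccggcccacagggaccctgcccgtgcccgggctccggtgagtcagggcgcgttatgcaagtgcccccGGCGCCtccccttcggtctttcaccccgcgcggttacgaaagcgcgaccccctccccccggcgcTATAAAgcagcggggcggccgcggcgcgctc
TF: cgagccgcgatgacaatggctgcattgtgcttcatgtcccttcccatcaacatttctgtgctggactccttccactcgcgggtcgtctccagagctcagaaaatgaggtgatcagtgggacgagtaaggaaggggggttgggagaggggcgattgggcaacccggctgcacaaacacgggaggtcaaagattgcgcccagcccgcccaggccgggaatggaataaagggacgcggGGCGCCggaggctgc

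The motifs were searched on both strands: TTCNNNGAA for STAT factors, GGCGCC for the BMP response element, TGTTTAC and TGTTTGC for FOXA, TTNNGNAAT for C/EBP, CAAAGTCCA for HNF4, GTTAAT for HNF1, CACGTG for the E-box and TATAAA for the TATA box. The HAMP sequence held GGCGCC from 105 to 100 bases before the start and the STAT letters from 93 to 85 bases before it. Of 35116 RefSeq promoters, 16.4% held GGCGCC, 6.57% held TTCNNNGAA and 0.538% held both. The RBP4 sequence held TATAAA from 31 to 26 bases before the start, which 10.7% of promoters held, and GGCGCC from 95 to 90 bases before it. The TF sequence held GGCGCC from 15 to 10 bases before the start, so these letters were not particular to HAMP among the 3. Nor were the STAT letters particular to the HAMP gene. They also lay from 186 to 178 bases before the outermost listed start of RBP4, whose sequence is not shown. No matches overlapped one another in these 3 sequences. A match describes letters only and is not evidence that a factor was bound.

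The 3 promoters differed in CpG content. RBP4 had 31 CpG dinucleotides in the 250 bases, a number reached by 10.9% of RefSeq promoters. TF had 17 (39.0% of promoters) and HAMP 10 (52.2%), against a median of 11. The order depends on the start taken, since the 250 bases before the other listed start of TF held 34 CpG (6.84% of promoters). RBP4 has 3 listed starts, and the one shown is the innermost, 509 bp inside the outermost. The sequences before the other starts, at 0 and 231 bp, held 7 and 12 CpG. With the outermost start, RBP4 would thus fall below HAMP in this order. TF has 2 listed starts 84395 bp apart, of which the downstream one is shown, and its RefSeq model spans 134644 bp against 32874 bp for the interval used here. Since the peak lists are on another build, distances below are from the ends of the GRCh37 gene intervals and were not matched to these RefSeq starts.

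The intervals were chr18:29171730-29178986 for TTR, chr10:95351444-95361501 for RBP4, chr3:133464977-133497850 for TF, chr4:72607410-72669758 for GC, chr19:35773410-35776046 for HAMP and chr7:100218039-100239173 for TFR2. RBP4, GC and TFR2 are on the minus strand and the others on the plus strand. Exons and introns are not given, since no GRCh37 annotation was used here.

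All 3 marks lay over the start of 5 of the 6 genes, or within 1000 bp of it, and GC had none there. The same share over all genes was not computed, since no GRCh37 annotation was used. The count of 5 of 6 therefore has no background beside it. The H3K27ac and H3K4me3 regions covered the start base itself at TTR, RBP4, TF, HAMP and TFR2. H3K4me1 covered the start base at 4 of these, the exception being RBP4, where the nearest H3K4me1 region began 443 bp upstream. The map of the 6 loci shows these regions with their surroundings.

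**Figure D1:**
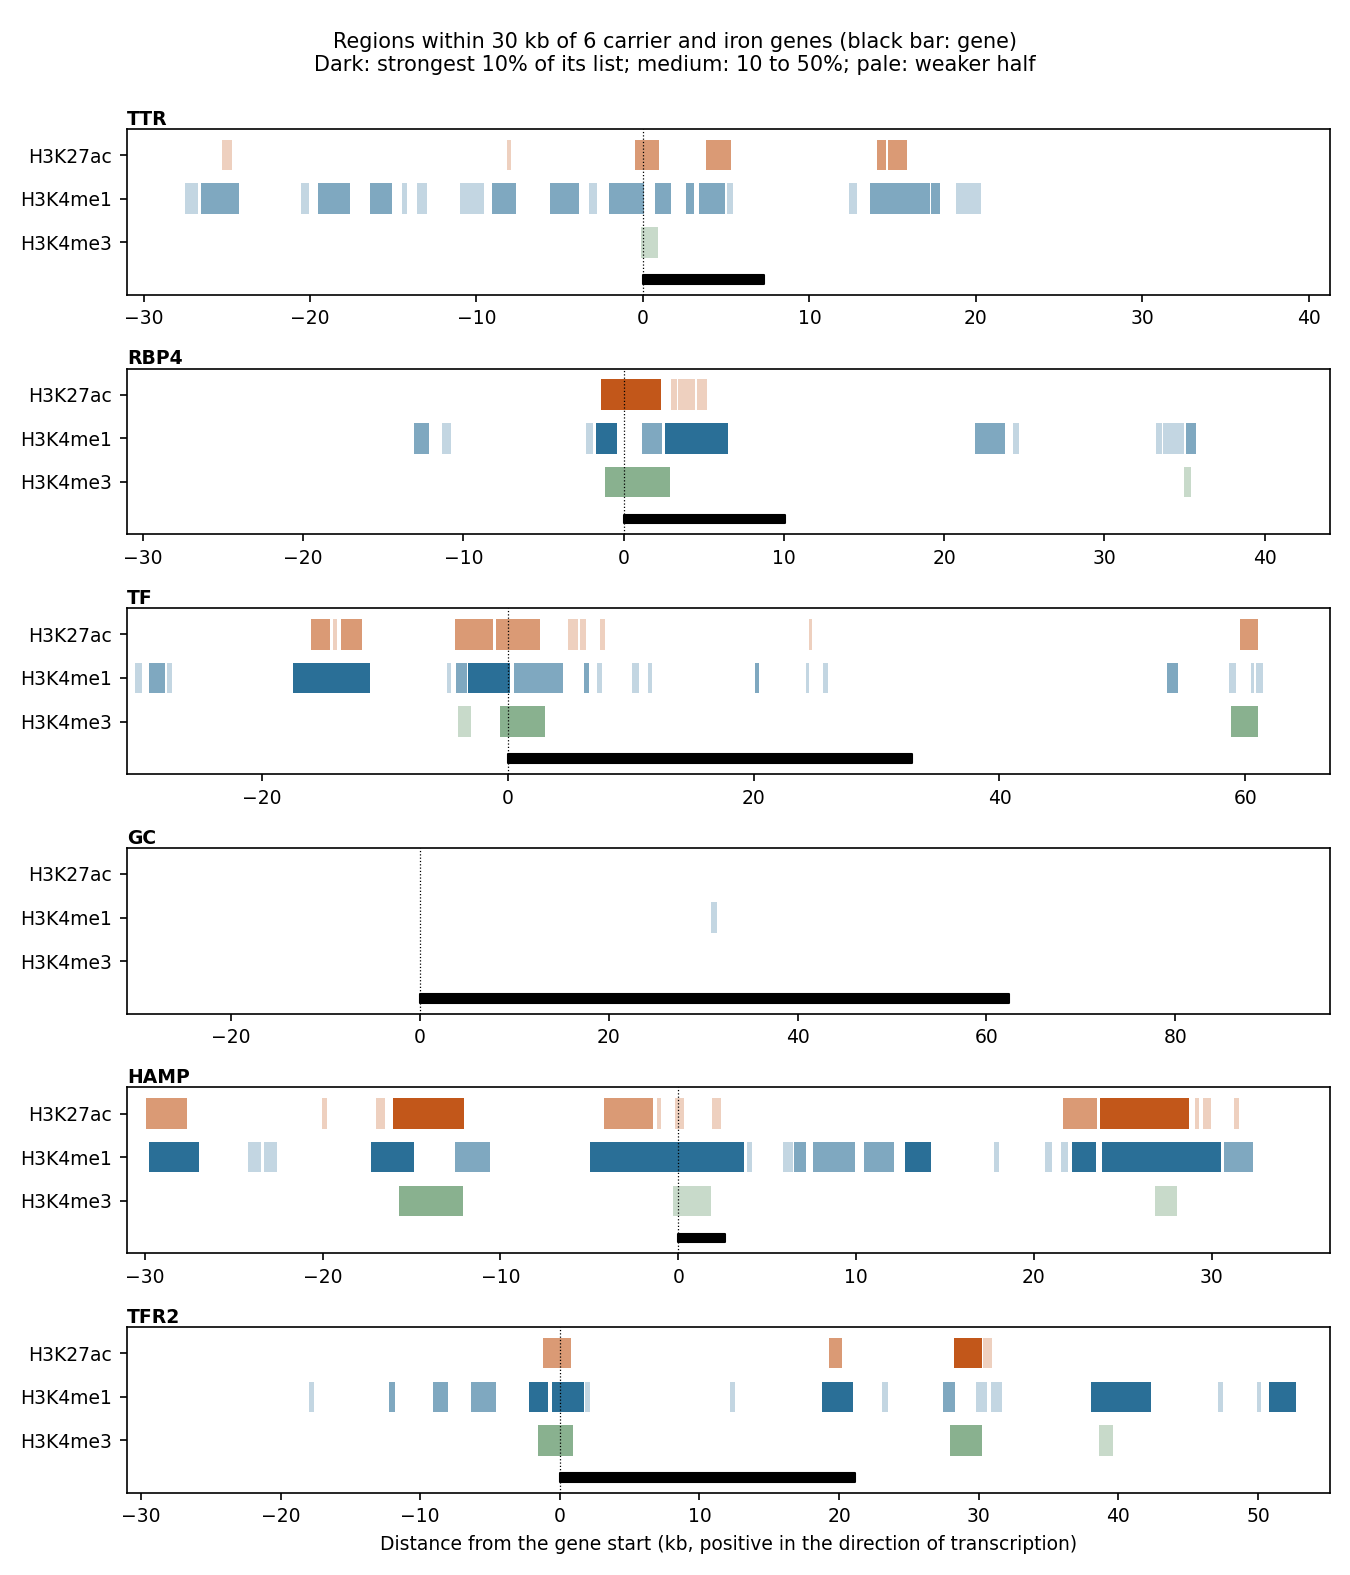
Regions of the 3 marks around each gene, plotted by distance in kb from the gene start, with positive values in the direction of transcription; the black bar is the gene and dark, medium and pale mark the strongest 10%, the rest of the stronger 50% and the weaker 50% of each list. The single region at GC stands against 18 H3K4me1 regions at HAMP and 20 at TTR.

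RBP4 had the strongest promoter by H3K27ac and H3K4me3. Strength is the authors' signal value from their peak caller, which ranks regions within 1 list and is not comparable between marks. The RBP4 H3K27ac region, chr10:95359184-95362906, was 3723 bp wide and had a signal value of 49.96, rank 825 of 66513, within the strongest 1.24%. Its H3K4me3 region, chr10:95358605-95362688, was 4084 bp wide with a signal value of 54.5, rank 2540 of 24446 or the strongest 10.4%. No other member region of H3K27ac or H3K4me3 had a higher signal value in its list.

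The promoter H3K27ac signal of the other genes was lower. TFR2 had 20.7 (chr7:100238373-100240407, the strongest 11.6%) and TF 17.5 (chr3:133463984-133467601, the strongest 14.1%). TTR had 6.78 (chr18:29171244-29172683, the strongest 29.5%). The region over the HAMP start, chr19:35773223-35773755, was 533 bp wide and had 2.49, below the list's median of 3.15.

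H3K4me3 gave the same order except that TF and TFR2 changed places. After RBP4, TF had a signal value of 35.9 (chr3:133464366-133467963, 3598 bp wide) and TFR2 had 32.4 (chr7:100238217-100240736, 2520 bp wide). TTR had 6.88 (chr18:29171642-29172622, 981 bp wide) and HAMP 5.02 (chr19:35773120-35775263, 2144 bp wide), both below the list's median of 13.3. Whether neighbours in these orders differ beyond the spread between cultures cannot be said from pooled lists.

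H3K4me1 regions that reached within 1000 bp of a start were ordered otherwise. The highest signal value of such a region was 11.1 at HAMP, followed by 10.8 at TFR2, 10.3 at TF, 6.36 at RBP4 and 5.91 at TTR. A signal value belongs to the whole region, and the summits of these regions lay 1859 bp from the start at HAMP, 2034 bp at TF and 1157 bp at RBP4, all upstream. The TFR2 summit lay 822 bp downstream and was the strongest of those within 1000 bp. The HAMP, TFR2 and TF regions were within the strongest 0.581%, 0.688% and 0.968% of the H3K4me1 list. The first place of HAMP is thus that of a wide region over the start, whose summit lies elsewhere.

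**Figure D2:**
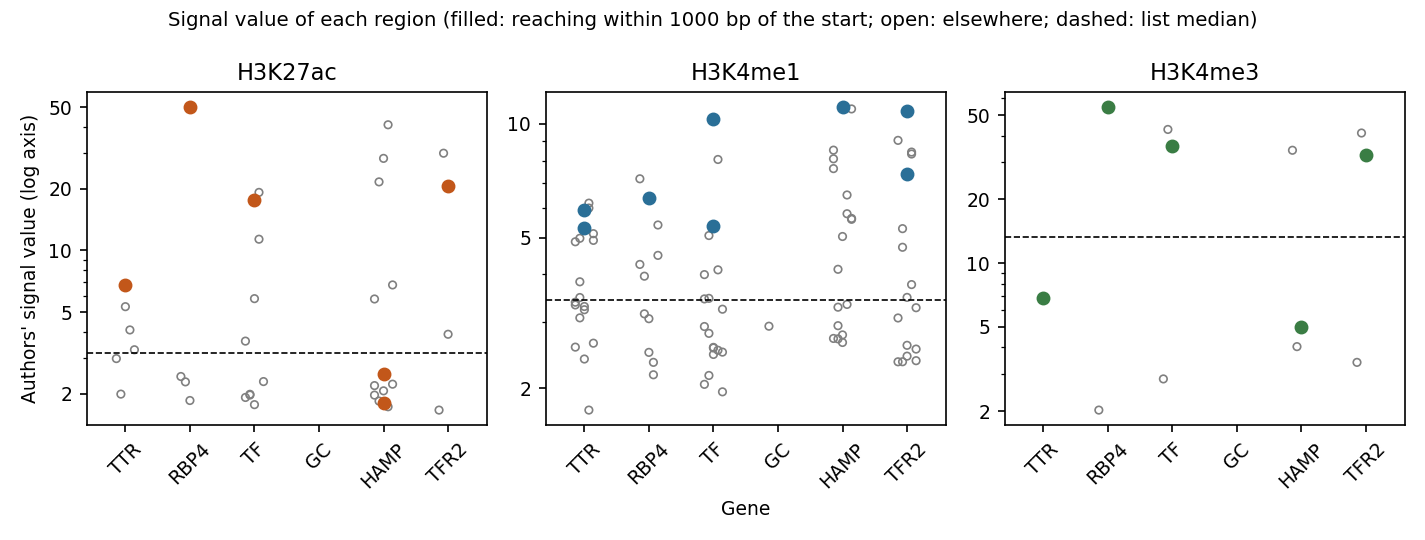
Authors' signal value of each region (log axis) for the 6 genes, 1 panel per mark; filled points are regions with at least 1 base within 1000 bp of the gene start, open points elsewhere in the window, and the dashed line is the median of the whole list. Among filled points RBP4 is highest for H3K27ac (49.96) and H3K4me3 (54.5), and HAMP for H3K4me1 (11.1, with its summit 1859 bp from the start).

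As the peaks were called, H3K4me1 was unbroken across the H3K4me3 region at the HAMP start and broken at the other 4 marked promoters. This depended on how peaks were split, as the joined peaks below show. At HAMP a single H3K4me1 region of 8606 bp, chr19:35768477-35777082, reached from 4933 bp upstream to 3672 bp downstream and contained the start, the gene and the whole H3K4me3 region. Only 428 of 182592 H3K4me1 regions (0.234%) were at least as wide. Of the 12 member H3K4me3 regions, 3 lay wholly inside H3K4me1 (95% Wilson interval of the share 8.89% to 53.2%), against 21.8% of the whole list. At the gene starts HAMP was the 1 such case of 5, and the share among the members is near that of the list. Among the 3630 H3K4me3 regions with a signal value between 4.01 and 8.60, a range chosen after the values were seen, 28.2% (26.7 to 29.7) lay wholly inside H3K4me1.

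At the other 4 starts H3K4me1 was interrupted within the H3K4me3 region. The widest interruption at RBP4 was 1572 bp, from 443 bp upstream to 1130 bp downstream. It was 674 bp at TTR, between 53 and 728 bp downstream, and at both genes the summits of H3K27ac and H3K4me3 lay inside it. The interruption was 387 bp at TF, between 146 and 534 bp downstream, and 336 bp at TFR2, between 865 and 528 bp upstream. At TF and TFR2 neither summit lay in the interruption. The H3K4me3 summit of TF lay 564 bp downstream and its H3K27ac summit 159 bp upstream. At TFR2 the H3K4me3 and H3K27ac summits lay 896 and 496 bp upstream. Apart from the H3K27ac summit of TF, these were close to an edge of the interruption, so little rests on their lying outside it. The share of the H3K4me3 region covered by H3K4me1 was 31.3% at TTR, 57.0% at RBP4, 86.7% at TFR2, 89.2% at TF and 100% at HAMP. With peaks of a list joined over gaps of up to 1000 bp, the H3K4me3 region lay wholly inside H3K4me1 at 4 of the 5 starts, and with the stronger 50% of each list at 0, since the H3K4me3 regions of HAMP and TTR then drop out.

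Acetylation covered less of the H3K4me3 region at HAMP than at the other marked starts. H3K27ac covered 24.9% of the HAMP H3K4me3 region, compared with 80.8% at TFR2, 85.8% at RBP4, 89.9% at TF and 100% at TTR. In the range of signal values given above, 45.3% of H3K4me3 regions were covered no more than that. The wide H3K4me1 region held 4 H3K27ac regions, which covered 46.9% of it. The strongest of these was not at the start: it lay from 4161 to 1413 bp upstream, chr19:35769249-35771997, with a signal value of 6.79 against 2.49 at the start.

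**Figure D3:**
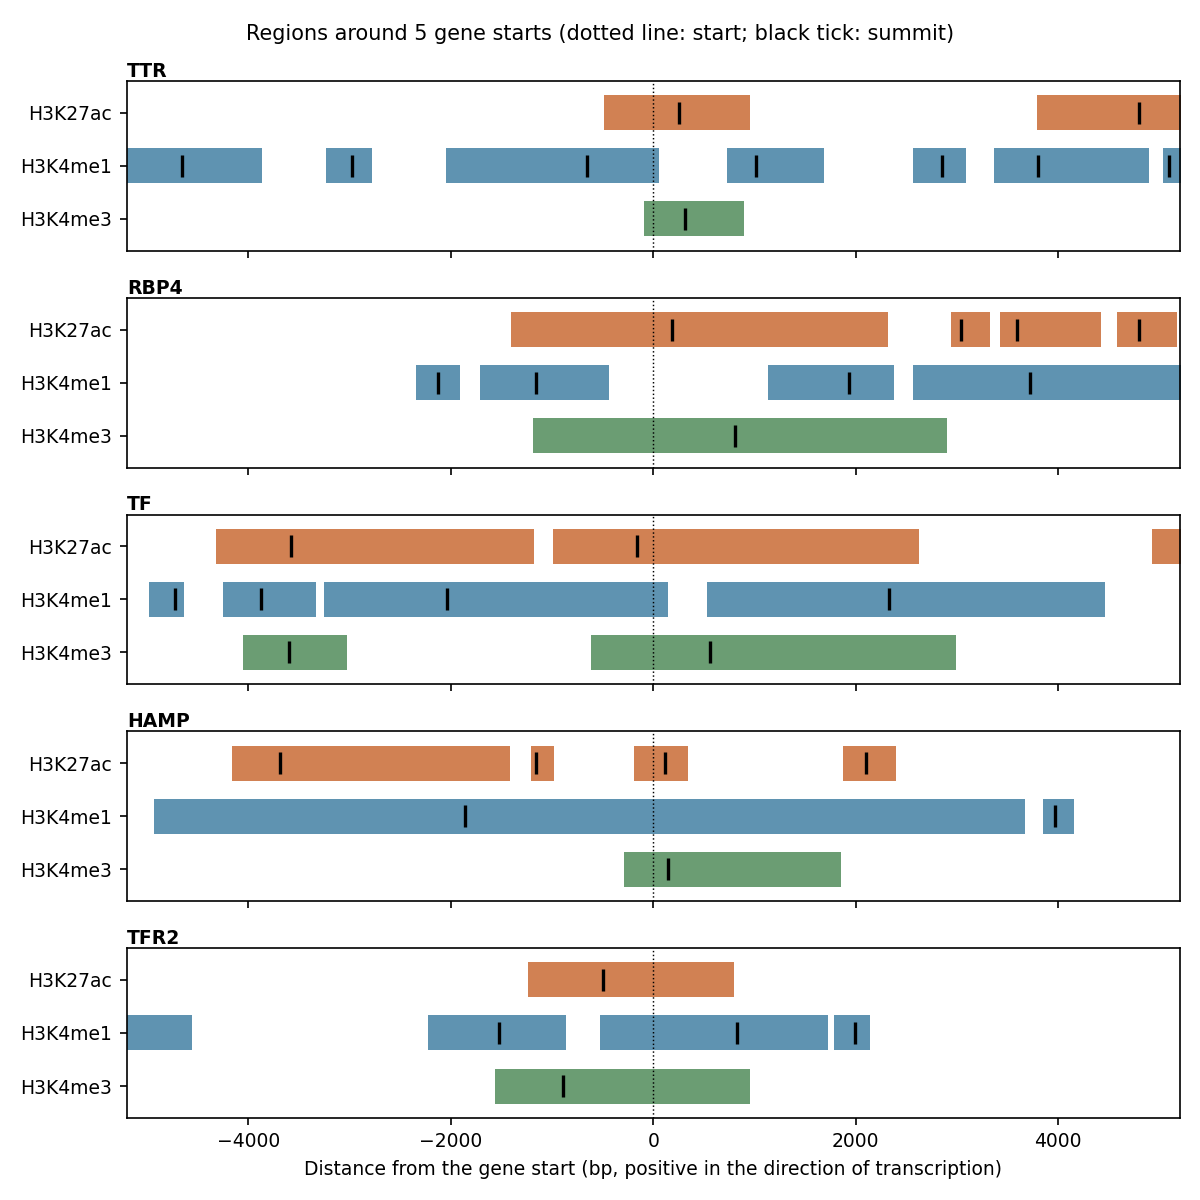
Regions within about 5 kb of the 5 marked gene starts, by distance in bp from the start (dotted line), with summits as black ticks. H3K4me1 is interrupted by 1572 bp at RBP4, 674 bp at TTR, 387 bp at TF and 336 bp at TFR2, while at HAMP 1 region of 8606 bp runs across the start.

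The 5 H3K27ac regions that covered a start base all overlapped H3K4me3, which follows from both marks covering that base. Of all 37 H3K27ac regions, these included, 25 carried H3K4me1 without H3K4me3 (67.6%, 51.5 to 80.4), against 59.8% of the whole list. A further 10 overlapped H3K4me3 (a share of 15.4% to 43.0% by the same interval), against 31.7%, and 2 overlapped neither methylation (5.41%, with an upper bound of 17.7%), against 8.52%. Of the 86 H3K4me1 regions 50 overlapped neither other mark (58.1%, 47.6 to 68.0), against 61.6%. These shares were near those of the whole lists, the intervals cover counting error only, and neighbouring regions are not independent.

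The median signal value of the members was 2.97 for H3K27ac against 3.15 for its list, 3.47 against 3.42 for H3K4me1, and 19.7 against 13.3 for H3K4me3. Of the 12 H3K4me3 members, 6 lay above the list's median. None had a value between 6.88 and 32.4, so their median falls in that gap. The H3K4me3 members had a median width of 2197.5 bp, against 1536 bp in the list. With 12 regions, 5 of them over a start, this is a description only.

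In the strongest 10% of its list by signal value, which by construction holds 10.0% of all regions, were 4 of the 37 H3K27ac regions and 15 of the 86 H3K4me1 regions. The latter is 17.4% (10.9 to 26.8), an interval that treats neighbouring regions as independent, which they are not. The 15 fell unevenly on the genes: 6 at HAMP, 5 at TFR2, 2 at RBP4 and 2 at TF. TTR had 0 of 20. None of the 12 H3K4me3 regions was in its strongest 10%. The RBP4 promoter was just outside, at 10.4%.

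TTR had the most H3K4me1 regions of the 6 genes. Its window of 67.3 kb held 20 H3K4me1 regions covering 36.1% of its length, and 6 H3K27ac regions covering 8.09%. Of the 20, 13 overlapped neither other mark (65.0%, 43.3 to 81.9), a share near the 61.6% of the whole H3K4me1 list. The promoter was the 1 H3K4me3 region. Among acetylated regions without H3K4me3, the strongest lay inside the gene, from 3792 to 5262 bp after the start (chr18:29175522-29176992, signal value 5.32). A pair of regions followed beyond the gene's end, from 14088 to 15869 bp after the start, with values of 4.09 and 3.28, both inside an H3K4me1 region of 3563 bp. Upstream, 11 H3K4me1 regions reached out to 27.5 kb, and the strongest of them, at 6.17, from 19492 to 17620 bp before the start, had no acetylation. The 2 upstream H3K27ac regions, with signal values of 2.97 and 1.99, lay wholly inside others of these H3K4me1 regions.

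RBP4 had its acetylation concentrated at the promoter. Its 4 H3K27ac regions lay between 1405 bp upstream and 5170 bp downstream. The 3 weaker ones, in the gene, had signal values from 1.85 to 2.43 and lay wholly inside an H3K4me1 region of 3937 bp with a value of 7.16 (chr10:95355000-95358936). No H3K27ac region lay further upstream or beyond the gene's end. From 34973 to 35392 bp after the start, a weak H3K4me3 region (2.02) overlapped H3K4me1 but not H3K27ac.

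TF had acetylation upstream of its promoter. A region from 4316 to 1181 bp upstream (chr3:133460661-133463796) had an H3K27ac signal value of 11.3 and contained a weak H3K4me3 region of 1032 bp with a value of 2.84. The H3K4me1 region of 3401 bp with the value of 10.3 bridged this site and the start. Further out, an H3K4me1 region of 6215 bp lay from 17449 to 11235 bp upstream (chr3:133447528-133453742, signal value 8.05, the strongest 3.71%). It contained 3 H3K27ac regions and no H3K4me3, and the highest of their signal values, 5.82, was the highest at TF among acetylated regions with H3K4me1 alone. Inside the gene the 4 H3K27ac regions that did not cover the start were weak, from 1.77 to 2.29. One of these, 762 bp wide, overlapped neither methylation.

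Some of the strongest regions in the windows were not those of the member's own start. At TF the highest H3K27ac and H3K4me3 values, 19.2 and 42.8, came from a site that began 58823 bp after the start, beyond the gene's end. RefSeq lists SRPRB as overlapping the TF gene model and RAB6B as the next gene downstream. At HAMP the highest values, 41.0 for H3K27ac and 34.1 for H3K4me3, came from a site 16011 to 12020 bp upstream, where the next genes in RefSeq order are USF2 and then LSR. At TFR2 they came from a site 28247 to 30258 bp after the start, with 29.8 and 41.2, beyond the gene's end on the side of MOSPD3 and PCOLCE. Which gene such a region serves was not determined, because the gene annotation at hand was on another build.

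Within 30 kb, HAMP had the most densely marked window, an order that turned at other window sizes. In 62.6 kb, H3K27ac covered 30.5%, H3K4me1 55.9% and H3K4me3 11.2%. Besides the upstream site and the wide H3K4me1 region at the gene, an acetylated stretch lay 21624 to 28709 bp after the start, on the side of the neighbour MAG. It consisted of regions of 1913 and 4997 bp with signal values of 21.6 and 28.1 (chr19:35795034-35796946 and chr19:35797123-35802119). The first had no H3K4me3 and was the strongest such acetylated region of all 6 windows. The second contained an H3K4me3 region of 1243 bp with a value of 4.03. The H3K4me1 regions between the wide one at the gene and this stretch overlapped neither other mark, and the strongest of them was 1462 bp wide with a value of 7.62.

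TFR2 had 4 H3K27ac regions, fewer than HAMP with 13 or TF with 10. Inside the gene 1 acetylated region, near its end, carried H3K4me1 without H3K4me3. It lay from 19245 to 20234 bp after the start (chr7:100218939-100219928, signal value 3.90) within an H3K4me1 region of 2248 bp and value 8.33. Upstream of the promoter, the other H3K4me1 regions reached 17987 bp from the start and had no acetylation. Beyond the gene's end, an H3K4me1 region from 38065 to 42337 bp after the start, 4273 bp wide with a value of 8.43, contained an H3K4me3 region of 961 bp and no H3K27ac.

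GC was nearly unmarked. Its window of 122.3 kb, the longest of the 6, held 1 region, an H3K4me1 region of 685 bp inside the gene (chr4:72638246-72638930, signal value 2.92), below that list's median of 3.42. The nearest H3K27ac region lay 308.08 kb upstream of the start, and the nearest H3K4me3 region lay 553.91 kb from the gene. The other 5 genes had an H3K27ac region over the start. A region that is not listed was not called, and with the depth unknown this does not show that the mark was absent.

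The same windows were set against consecutive windows of equal length over chromosomes 1 to 22 and X, as a description of the lists. At HAMP, 1.36% of 48431 windows had at least as much of their length in H3K27ac, 0.696% in H3K4me1 and 2.52% in H3K4me3. The corresponding shares at TF were 5.99%, 8.61% and 5.19%. At TFR2 they were 14.7%, 9.04% and 6.11%, and at RBP4 12.7%, 12.0% and 7.76%. TTR was uneven, with 3.68% for H3K4me1 against 12.8% for H3K27ac and 23.9% for H3K4me3. At GC, 54.3% of 24789 windows likewise had no H3K27ac, 58.95% had no H3K4me3, and 59.7% had at least as much H3K4me1. These windows include gaps of the assembly, where no region can be called. They were also laid without regard to genes, whereas each member window was built around a gene, so the shares do not compare genes with genes.

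**Figure D4:**
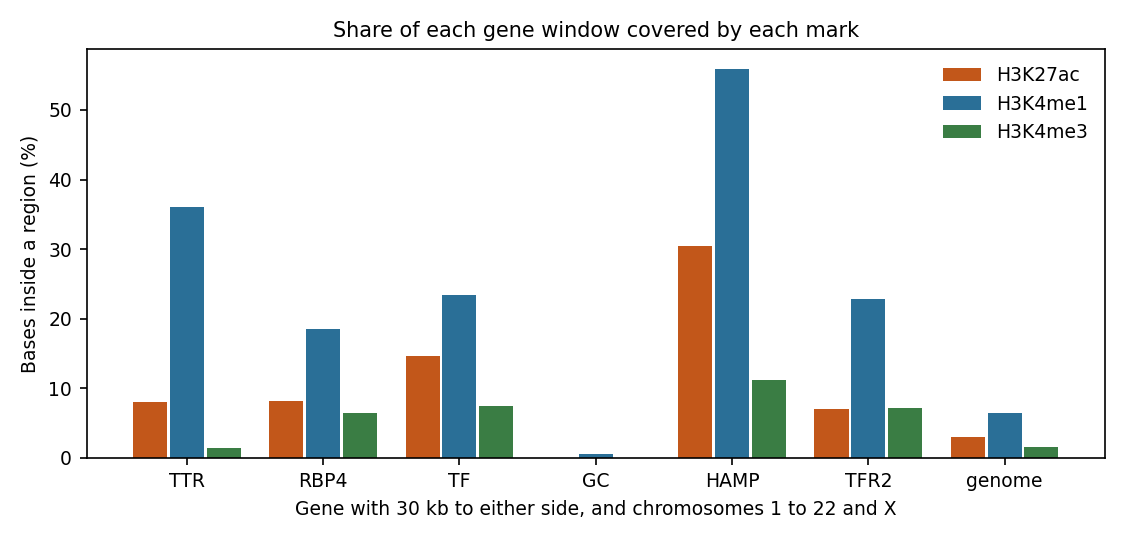
Percent of bases inside a region of each mark, for each gene with 30 kb to either side and for chromosomes 1 to 22 and X together. HAMP is highest for all 3 marks (30.5%, 55.9% and 11.2%), GC has 0.560% in H3K4me1 and nothing else, and the genome has 3.04%, 6.47% and 1.49%.

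Strong acetylation lay just outside the 30 kb limit at HAMP and TFR2. At HAMP the H3K27ac region farthest from the gene within the window lay 28.61 kb from it with a signal value of 1.97, and the first outside lay at 30.34 kb with a value of 18.5. At TFR2 the first H3K27ac region outside lay at 31.57 kb with a value of 25.5. At TTR the farthest inside had 2.97, and the first outside, at 39.98 kb, had 3.49. The order of the genes by coverage depended on the window. Within 10 kb, H3K27ac covered 18.98% at RBP4, 17.8% at HAMP and 17.8% at TTR, and H3K4me3 covered 13.6% at RBP4, 11.7% at TFR2 and 9.47% at HAMP. H3K4me1 remained highest at HAMP within 10 kb, with 62.6%. Within 100 kb TFR2 was above HAMP for all 3 marks, with 22.2% against 13.4% for H3K27ac, 37.3% against 29.3% for H3K4me1 and 13.2% against 4.99% for H3K4me3.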

How the data were processed

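The authors deposited 1 peak list for each of 3 marks in HepG2 cells (H3K27ac, H3K4me1, H3K4me3), each pooled from 3 libraries going by its name. MACS2 and hg19 are named in the submitters' processing notes; the caller's version, the aligner, the threshold and the use of the control libraries are not given in the sources used here. Each peak has a signal value from the authors, whose scale is unexplained in the sources used here. The −log10 p-value and −log10 q-value per peak were deposited beside it. The q-value served only as a filter in an alternative, and 2 member regions, both H3K4me1, had one above 0.05. Peaks on chromosome Y were left out.

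Positions are GRCh37, counted from 1. No peaks of a list overlapped. A start is the 5′ end of the gene interval, and regions overlap where they share 1 bp. The text names the member region with the highest signal value of each list. At each gene that had them, it gives the strongest region of each mark within 1000 bp of the start. It also gives the strongest acetylated region with H3K4me1 but no H3K4me3. Weaker regions within 1000 bp of a start were not all named. Other regions were picked after their values were seen. The members and lists were chosen with earlier results of these data known. Other genes of these pathways were not analysed here, since the RefSeq gene table was of GRCh38 and served only for names and neighbours. The overlap code was tested on simulated regions. Analyses used Python 3.11.15, numpy 2.4.6, pandas 2.3.3, scipy 1.17.1 and matplotlib 3.10.9.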

Additional observations from a re-analysis of the deposited data

How the results depend on the processing

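No paired analysis was possible because each list pools its replicates and carries no replicate numbers. Over 14 summary results, 69 alternative values were computed, of which 35 stayed within 1.5 times the main value and 34 moved more. The alternatives for H3K4me3 regions over a start and wholly inside H3K4me1, and the stronger 50% for coverage, were chosen after seeing the data. Fewer or joined regions follow from how the filters and joins are built.

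Within 10 kb there were 23 H3K27ac, 44 H3K4me1 and 7 H3K4me3 regions, with 15 acetylated regions carrying H3K4me1 alone, 1 carrying neither methylation and 22 H3K4me1 regions alone. Within 100 kb the corresponding counts were 86, 201, 30, 52, 6 and 119, with 28 acetylated regions overlapping H3K4me3. A −log10 q-value of at least 5 left 24 H3K27ac and 56 H3K4me1 regions, with 13, 1 and 29 in the same classes. The stronger 50% of each list left 18 H3K27ac, 45 H3K4me1 and 6 H3K4me3 regions, with 6 overlapping H3K4me3, 12 with H3K4me1 alone, 0 with neither and 24 H3K4me1 regions alone, and 3 genes with H3K4me3 at the start. Joining peaks within 1000 bp gave 22 H3K27ac and 44 H3K4me1 regions, with 12, 1 and 20 in these classes. Requiring 50% of a region to be covered gave 5 acetylated regions with neither methylation. H3K4me3 regions over a start and wholly inside H3K4me1 numbered 1, 0 with the stronger 50% and 4 with joined peaks. Of 72 values for single windows, 25 moved.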
